A study of Arabidopsis thaliana with 6 samples.

Results

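Cytochrome P450 and UDP-glycosyltransferase genes were compared between leaves of the Arabidopsis thaliana mutant des1-1 and leaves of the wild type. A gene was taken as a member where its probe set on the Affymetrix ATH1 array was annotated with a single symbol of the full family form, CYP or UGT with a family number, a subfamily letter and a gene number. The glucosinolate enzyme UGT74B1 and the anthocyanin enzyme UGT75C1 were left out by this rule, as were the cyclophilins CYP71 and CYP59, which only share the prefix. It gave 68 probe sets, 1 for each of 68 genes, out of 22746 tested, of which 22 were P450s (CYP) and 46 were glycosyltransferases (UGT).

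The mutant group was des1-1, an insertion line of the SALK collection disrupted in DES1, with 3 biological replicates. The wild-type group was the accession Col-0, also with 3. DES1 is a homolog of the enzymes that make cysteine, but the homology does not say that DES1 itself makes it. Leaves were taken at 3 weeks from plants kept in soil with Hoagland medium, under 16 h of white light at 20 °C and 8 h of darkness at 18 °C. Only 1 mutant line was measured, so effects of the insertion and of that line's background cannot be told apart. DES1 had 0 probe sets with its name alone, so the level of DES1 could not serve as a check of the genotype labels.

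Cytochrome P450s are haem enzymes, mostly anchored in the endoplasmic reticulum, that insert oxygen into small molecules with electrons from NADPH. UDP-glycosyltransferases are mostly soluble enzymes that move a sugar from a UDP-sugar onto hydroxyl, carboxyl or amino groups. They often act on molecules that a P450 has oxidised before. In leaves both families act on flavonoids, sinapate esters, defence compounds, hormones and foreign chemicals, and a sugar commonly makes the acceptor more soluble, less active or ready for storage in the vacuole. In both families many genes lie beside close relatives on the chromosome.

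The 6 arrays gave log2 values from 3.63 to 14.63, with array medians of 5.78 to 5.81. Arrays of 1 genotype correlated at 0.9939 to 0.9966 over all probe sets, and arrays of different genotypes at 0.9869 to 0.9967. Wild-type array 2 stood apart in the 25S ribosomal RNA control, at 10.2 against 5.49 to 6.20 on the other arrays. The leaf genes RCA, PRK, LHCB4.1 and LHCB4.2, which act in carbon fixation and light harvesting, read 12.37 to 14.11 in des1-1 and 12.33 to 14.12 in the wild type. EXPA7, an expansin of root hairs, read 4.73 to 5.34 in des1-1 and 4.85 to 4.99 in the wild type. EXPA18, another of them, read 5.40 to 5.73 in des1-1 and 5.33 to 5.74 in the wild type, just below the array medians.

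The array's annotation covered the families unevenly. The RefSeq table of the TAIR10.1 assembly holds 225 genes with a P450 symbol of the same form and 58 with a glycosyltransferase symbol, so the members are 22 of 225 and 46 of 58. Among the 22 P450s, 18 belong to the single subfamily CYP71B. The others were CYP51G2, CYP78A9, CYP79A2 and CYP84A4. The 46 glycosyltransferases spread over 20 subfamilies. P450s of brassinosteroid, gibberellin, abscisic acid, jasmonate, cytokinin, strigolactone, carotenoid, sterol and cutin metabolism, listed by name for this comparison, had 0 measured members and were not analysed here.

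No member of either family passed the test of des1-1 against the wild type. In limma, with p-values adjusted by Benjamini-Hochberg over all 22746 probe sets, 0 of 22 P450s and 0 of 46 glycosyltransferases had an adjusted p under 0.05, against 0.387% of all probe sets (0.33% higher and 0.0572% lower in des1-1). At an unadjusted p under 0.05 the counts were 0 of 22 P450s and 6 of 46 glycosyltransferases. The glycosyltransferase share was 13.0%, against 15.6% of all probe sets (7.9% higher and 7.66% lower). These 6 were UGT87A2, UGT78D2, UGT72E1, UGT85A4 and UGT88A1, with higher values in des1-1, and UGT76E11, with lower values. The glycosyltransferase count was 2 without wild-type array 1, 3 without des1-1 array 3 and 3 without wild-type array 2 and des1-1 array 3 together. The shares of all probe sets in these settings were 10.4%, 10.6% and 8.05%, also below 15.6%. In RNA of whole leaves, fewer cells of a type and less RNA per cell cannot be told apart.

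Differences in both families were centred near 0. The median log2 difference, des1-1 minus wild type, was -0.02 over the 22 P450s and -0.01 over the 46 glycosyltransferases, beside 0.00 over all probe sets. Without the dimmest 50% of probe sets these medians were 0.11 over 12 P450s and 0.08 over 20 glycosyltransferases, beside 0.01. P450 differences ran from -0.24 for CYP71B24 to 0.20 for CYP84A4, with 10 above 0 and 12 below. Glycosyltransferase differences ran from -0.37 for UGT76E11 to 0.49 for UGT87A2, with 19 above 0 and 27 below. No test was made between the families, and the larger family also had more chances of an extreme value.

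The intervals set limits on the measured differences. They limit the true change less well in dim probe sets, whose differences are compressed by RMA, the method behind the deposited values. For all 68 members, each taken alone, the 95% interval of the difference stayed inside a range of 1 on the log2 scale on either side of 0, which is a 2-fold difference, as did 98.9% of all probe sets. The widest limits reached -0.65 for UGT76E11 and 0.74 for UGT87A2. For 18 of the 22 P450s and 41 of the 46 glycosyltransferases the interval stayed within 0.5 on either side, against 84.8% of all probe sets. It did so for all 36 members dimmer than the median probe set, against 94.9% of all dim probe sets. Among the 32 brighter members it did so for 23, 71.9% against 74.7% of all bright probe sets.

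**Figure D1:**
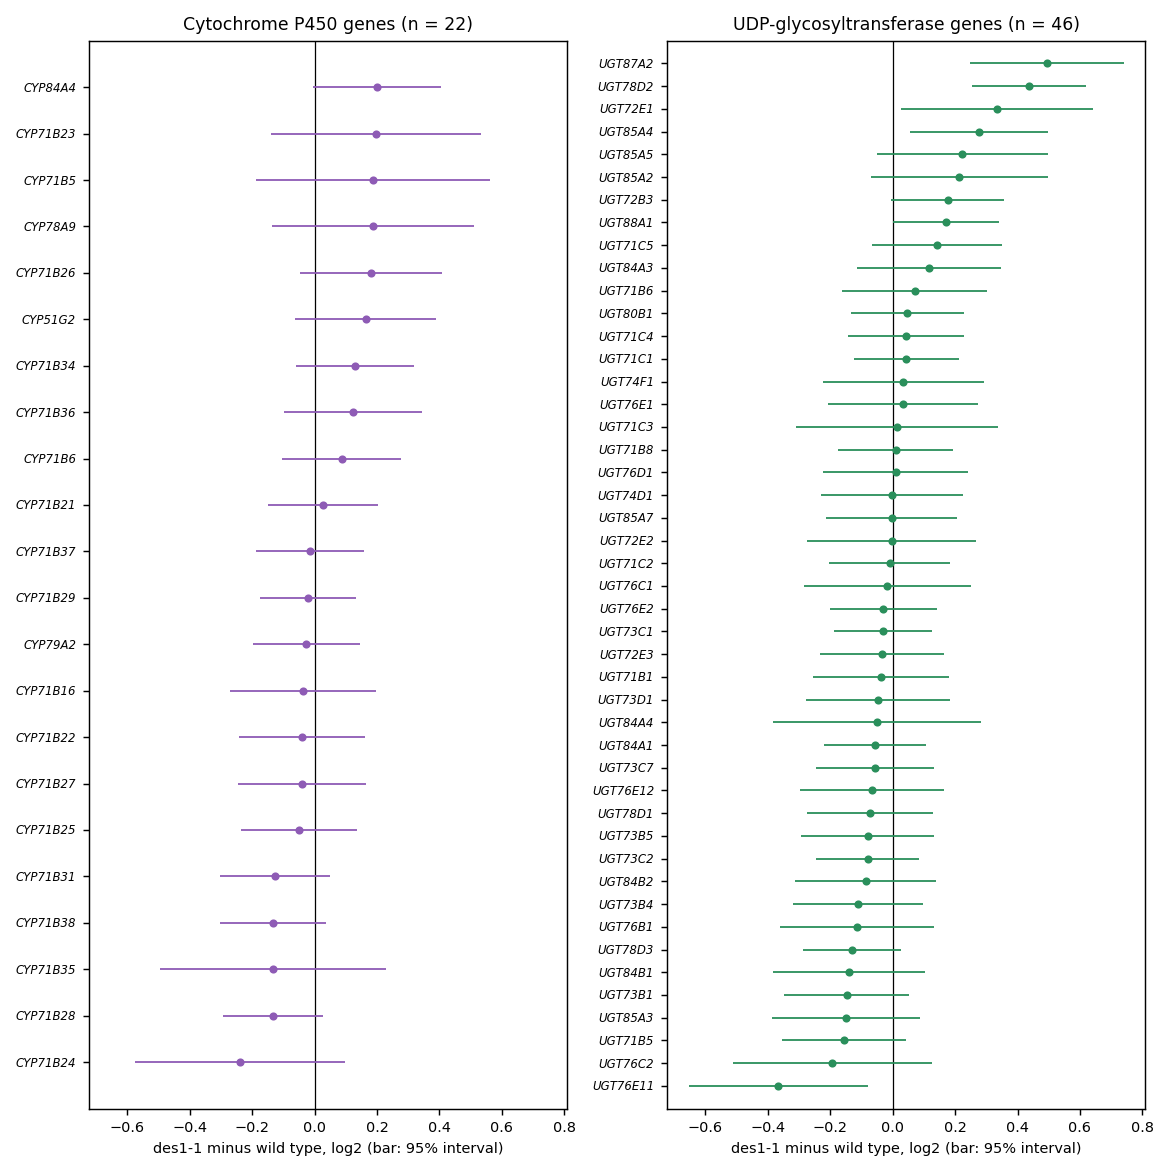
Log2 difference, des1-1 minus wild type, with its 95% interval from limma for each of the 22 P450s (left panel) and 46 glycosyltransferases (right panel), ordered by size. All 22 P450 intervals include 0, and the intervals of UGT87A2, UGT78D2, UGT72E1, UGT85A4, UGT88A1 and UGT76E11 do not, although 0 members passed after adjustment.

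The 2 genotypes did not overlap in 11 members, 16.2% of the 68 against 18.5% of all probe sets. Values were higher in all 3 des1-1 arrays than in all 3 wild-type arrays for 6 glycosyltransferases and 0 P450s, and 9.87% of all probe sets lay this way. They were lower in all 3 des1-1 arrays for UGT76E11, UGT78D3 and 3 P450s, and 8.66% of all probe sets lay that way.

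**Figure D2:**
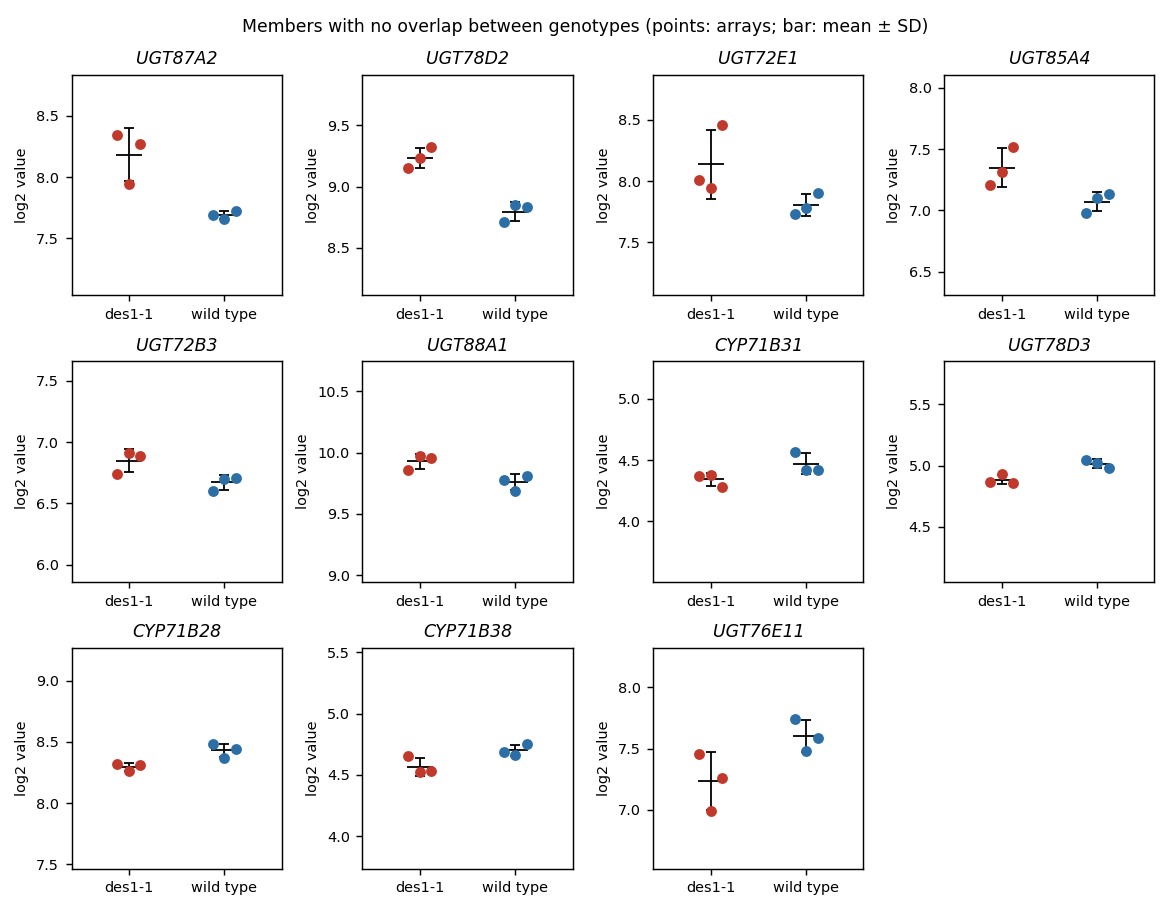
Log2 values of the 11 members without overlap between genotypes, with 3 des1-1 arrays at the left and 3 wild-type arrays at the right of each panel, and the mean ± SD. Every panel spans the same range of log2 units. The gap between the genotypes is widest in UGT78D2 and next in UGT87A2, and in the others the nearest arrays of the 2 genotypes lie close together.

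Flavonoid glycosylation was represented by UGT78D1, UGT78D2 and UGT78D3, which attach different sugars to the same position of flavonols. UGT78D2, a flavonoid 3-O-glucosyltransferase that also acts on anthocyanidins, read 9.15, 9.23 and 9.32 in des1-1, against 8.71, 8.85 and 8.83 in the wild type. The lowest mutant array lay above the highest wild-type array by more than the SD of either group (0.09 in des1-1 and 0.08 in the wild type). The difference was 0.44 ± 0.08 SE, or 1.35-fold, with an unadjusted p of 0.000487 and an adjusted p of 0.074 in limma, the smallest adjusted p of any member. It lay between 0.39 and 0.48 in 14 alternative analyses. It passed the test in 1 of them, without des1-1 array 1 (adjusted p = 0.036, within a range of 0.036 to 0.484). In that setting 3.36% of all probe sets passed, against 0.387% with all arrays. The unadjusted p of UGT78D2 there was 0.000729 in limma, larger than with all arrays.

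The relatives of UGT78D2 did not show this difference. UGT78D1, the flavonol rhamnosyltransferase, read 9.29, 9.08 and 9.23 in des1-1, against 9.24, 9.19 and 9.39 in the wild type, with overlapping genotypes and a difference of -0.07 (95% interval -0.28 to 0.13). UGT78D3, the flavonol arabinosyltransferase, read 4.87, 4.93 and 4.86 in des1-1, against 5.05, 5.02 and 4.98 in the wild type. Its mutant arrays all lay below the wild-type arrays, and the difference of -0.13 ± 0.07 SE had an adjusted p of 0.416. UGT78D3 was dimmer than the median probe set, and RMA compresses the differences of dim probe sets. UGT78D3 and UGT78D2 are separated by 1 gene on chromosome 5, and their intervals, -0.29 to 0.03 and 0.25 to 0.62, did not overlap.

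UGT84A1, UGT84A3 and UGT84A4 form glucose esters of hydroxycinnamic acids such as sinapate. UGT84A3 read 7.99, 8.20 and 8.31 in des1-1, against 8.03, 7.96 and 8.16 in the wild type, with overlap and a difference of 0.12 ± 0.10 SE. UGT84A1 differed by -0.06 and UGT84A4 by -0.05. In UGT84A4 the wild-type arrays were spread widely, at 6.25, 5.87 and 6.51, and the mutant arrays fell inside that range. Of the 6 measured genes on the list of flavonoid and phenylpropanoid ester enzymes, 0 passed in either direction, 2 were above 0 and 4 below.

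UGT72E1, UGT72E2 and UGT72E3 put glucose on the aldehyde and alcohol precursors of lignin. UGT72E1, which acts on the aldehydes, read 8.01, 7.94 and 8.46 in des1-1, against 7.73, 7.78 and 7.90 in the wild type. The genotypes did not overlap, but des1-1 array 2 lay only just above wild-type array 3, and des1-1 array 3 stood well above its own group. The difference was 0.33 ± 0.13 SE (adjusted p = 0.283), and it was 0.16 without wild-type array 2 and des1-1 array 3 together, the lowest of its alternatives. UGT72E2 and UGT72E3, which act on the alcohols, differed by 0.00 and -0.03, with intervals of -0.27 to 0.27 and -0.23 to 0.17.

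UGT72B3, a relative of the xenobiotic glucosyltransferase UGT72B1, read 6.74, 6.91 and 6.89 in des1-1, against 6.60, 6.70 and 6.71 in the wild type. All mutant arrays were higher, the nearest pair only slightly, and the difference of 0.18 ± 0.08 SE had an adjusted p of 0.332. On the list of lignin precursor and xenobiotic enzymes, 4 of 7 genes were measured and 0 passed.

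UGT87A2, an enzyme linked to flowering time and to stress tolerance, had the largest difference of all 68 members. It read 8.34, 7.94 and 8.27 in des1-1, against 7.69, 7.66 and 7.72 in the wild type. The wild-type arrays lay within a narrow band (SD 0.03, n = 3), while the mutant arrays were spread (SD 0.21, n = 3), with array 2 closest to the wild type. The difference was 0.49 ± 0.11 SE, or 1.41-fold, with an unadjusted p of 0.00159 and an adjusted p of 0.118 in limma. Without des1-1 array 2 it was 0.615 and passed (adjusted p = 0.0473, within 0.0473 to 0.581 over the 14 alternatives). In that setting 0.171% of all probe sets passed.

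The other enzymes linked to stress and to group D of the family gave smaller values. UGT73B4 and UGT73B5, induced by pathogens and oxidative stress, differed by -0.11 and -0.08, and UGT73B1 by -0.15. UGT73C1, UGT73C2 and UGT73C7 differed by -0.03, -0.08 and -0.06, and UGT73D1 by -0.05. The 7 members named UGT73 were thus all below 0, but every interval included 0, all 7 were dimmer than the median probe set, and the genotypes overlapped in each. UGT71C1, UGT71C2, UGT71C3 and UGT71C4 stood at 0.04, -0.01, 0.01 and 0.04. Of this list 12 of 21 genes were measured and 0 passed, with 4 above 0 and 8 below.

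Enzymes that conjugate hormones showed no difference past the test. Of 21 genes listed 12 were measured, with 5 above 0 and 7 below and a median difference of -0.01. UGT71C5, the main enzyme that makes the glucose ester of abscisic acid, read 7.98, 8.07 and 8.26 in des1-1, against 8.04, 7.91 and 7.93 in the wild type, a difference of 0.14 (95% interval -0.06 to 0.35). UGT71B6 and UGT71B8, of a subfamily that also conjugates abscisic acid, differed by 0.07 and 0.01.

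UGT76C2 and UGT76C1, neighbouring genes for N-glucosylation of cytokinins, differed by -0.19 (95% interval -0.51 to 0.13) and -0.02 (-0.28 to 0.25). UGT76C2 read 6.0, 6.33 and 5.94 in des1-1, against 6.49, 6.04 and 6.32 in the wild type, so the genotypes overlapped. The auxin enzymes UGT84B1 and UGT74D1 differed by -0.14 and 0.00, and UGT84B2, next to UGT84B1, by -0.09. UGT76B1, which glucosylates isoleucic acid, salicylic acid and N-hydroxypipecolic acid in immunity, stood at -0.11 (-0.36 to 0.13), and UGT74F1, an enzyme of salicylic acid, at 0.03 (-0.22 to 0.29). UGT76B1 lay among the dimmest 25% of probe sets.

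The UGT76E subfamily held the member with the lowest difference. UGT76E11, whose product has been linked to flavonol glycosylation, read 7.46, 6.99 and 7.26 in des1-1, against 7.74, 7.48 and 7.59 in the wild type. The genotypes did not overlap, though des1-1 array 1 and wild-type array 2 were almost equal. The difference was -0.37 ± 0.13 SE (unadjusted p = 0.0182, adjusted p = 0.22 in limma), and it stayed between -0.48 and -0.24 over the alternatives, where the adjusted p ran from 0.07 to 0.604. UGT76E12, close by on chromosome 3, differed by -0.07, and UGT76E1 and UGT76E2, neighbours on chromosome 5, by 0.03 and -0.03. UGT76E1 glucosylates 12-hydroxyjasmonate. UGT76D1, of another branch of family 76, stood at 0.01.

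The UGT85A subfamily had 5 members, with 3 above 0 and 2 below. UGT85A4 read 7.21, 7.31 and 7.52 in des1-1, against 6.98, 7.10 and 7.13 in the wild type, without overlap. Its difference was 0.28 ± 0.10 SE (unadjusted p = 0.0195, adjusted p = 0.223 in limma), and 0.19 to 0.35 over the alternatives. UGT85A5 read 6.84, 6.90 and 7.09 in des1-1, against 6.47, 6.85 and 6.84 in the wild type. UGT85A2 read 8.01, 7.81 and 8.03 in des1-1, against 7.91, 7.47 and 7.83 in the wild type. The 2 differed by 0.22 and 0.21, and in each a single low wild-type array, array 1 for UGT85A5 and array 2 for UGT85A2, lay apart from the others. Without that array the difference was 0.098 for UGT85A5 and 0.08 for UGT85A2. UGT85A7 differed by 0.00 and UGT85A3 by -0.15.

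The remaining glycosyltransferases were UGT88A1, UGT80B1, UGT71B1 and UGT71B5. UGT88A1 read 9.86, 9.97 and 9.96 in des1-1, against 9.78, 9.69 and 9.81 in the wild type, a difference of 0.17 ± 0.07 SE without overlap (unadjusted p = 0.0493, adjusted p = 0.32 in limma). UGT80B1, which glucosylates sterols, stood at 0.05 (95% interval -0.13 to 0.23). UGT71B1 and UGT71B5 stood at -0.04 and -0.16.

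**Figure D3:**
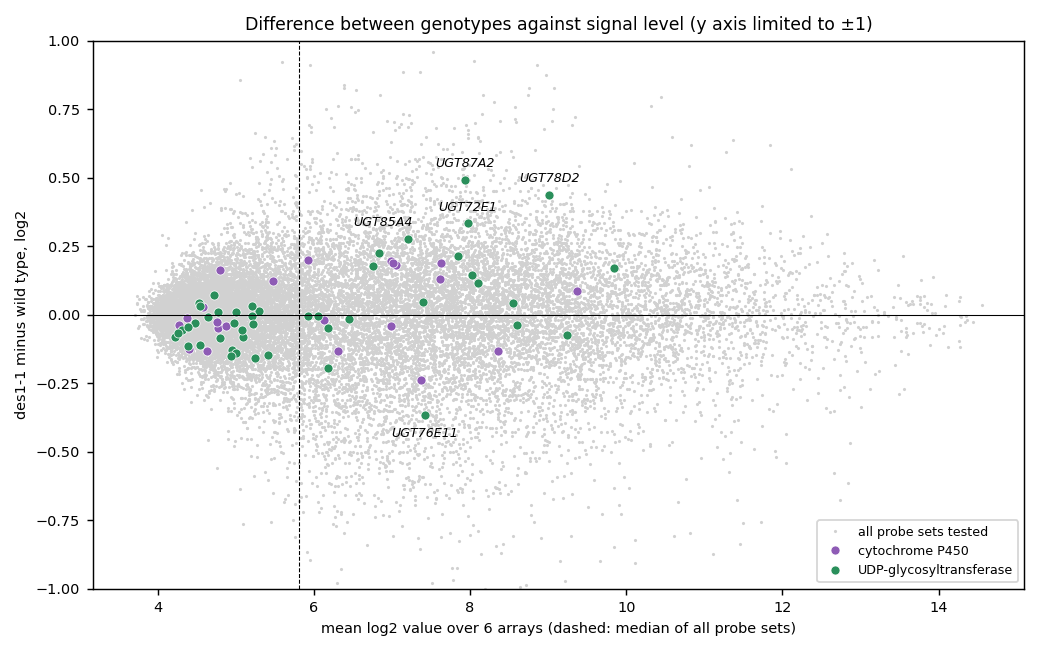
Log2 difference, des1-1 minus wild type, against the mean log2 value over 6 arrays for all 22746 probe sets tested (grey), the 22 P450s (purple) and the 46 glycosyltransferases (green), with the vertical axis limited to 1 on either side of 0. Members with the largest differences lie right of the dashed median line, and those left of it stay within -0.16 to 0.16.

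Signal level went with the size of the differences. By the mean over all 6 arrays, 12 of the 22 P450s and 20 of the 46 glycosyltransferases were brighter than the median of all probe sets. The median absolute difference was 0.16 in the 32 brighter members and 0.05 in the 36 dimmer ones, beside 0.14 and 0.06 over all probe sets above and below that median. All 6 glycosyltransferases with an unadjusted p under 0.05 were among the 20 brighter ones, a share of 30.0%. Over the whole array 25.1% of the brighter and 5.99% of the dimmer probe sets had such a p. Of the 12 brighter P450s 0 had.

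CYP71B enzymes belong to the large CYP71 family of plant P450s, and the roles of most are not settled. Of the 18 measured, 7 were above 0 and 11 below, with a median difference of -0.03. CYP71B6, which oxidises indole-3-acetonitrile, read 9.50, 9.32 and 9.40 in des1-1, against 9.34, 9.40 and 9.22 in the wild type. The genotypes overlapped, and the difference was 0.09 (95% interval -0.10 to 0.28).

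The 3 P450s without overlap were all CYP71B genes with lower values in des1-1. CYP71B28 read 8.32, 8.26 and 8.31 in des1-1, against 8.48, 8.37 and 8.44 in the wild type, with a difference of -0.13 ± 0.07 SE (adjusted p = 0.416). CYP71B38 read 4.65, 4.52 and 4.53 in des1-1, against 4.69, 4.66 and 4.75 in the wild type. CYP71B31, an enzyme of linalool oxidation in flowers, read 4.37, 4.38 and 4.28 in des1-1, against 4.57, 4.42 and 4.42 in the wild type. Both were dim, with differences of -0.13 each, and the nearest arrays of the 2 genotypes were almost equal.

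The widest spreads among the P450s lay within des1-1. CYP71B5 read 7.86, 7.31 and 8.01 in des1-1, against 7.63, 7.50 and 7.49 in the wild type. CYP71B23 read 7.45, 6.84 and 6.98 in des1-1, against 6.86, 6.99 and 6.83 in the wild type. CYP71B24 read 7.57, 6.96 and 7.23 in des1-1, against 7.64, 7.43 and 7.41 in the wild type. In all 3 genes des1-1 array 2 was the lowest mutant array, and the SD in des1-1 was 0.31 to 0.37, against 0.08 to 0.13 in the wild type. CYP71B35, with an SD of 0.30 in des1-1 and 0.20 in the wild type, was also lowest on des1-1 array 2, at 5.90. Their differences of 0.19, 0.20, -0.24 and -0.13 had the 4 largest SEs of the family, from 0.15 to 0.16. Over all probe sets brighter than the median, the median SD was also larger in des1-1, at 0.13 against 0.10. Des1-1 array 2 was the lowest mutant array for 39.9% of them.

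CYP71B26 stood at 0.18 ± 0.10 SE, CYP71B34 at 0.13 and CYP71B36 at 0.12, with intervals that included 0. CYP71B16, CYP71B21, CYP71B22, CYP71B25, CYP71B27, CYP71B29 and CYP71B37 lay between -0.05 and 0.03. CYP71B27 and CYP51G2 are annotated as transcribed pseudogenes in the RefSeq table. They differed by -0.04 and 0.16.

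Outside CYP71B, CYP84A4 had the smallest p of the P450s. It takes part in the synthesis of the arabidopyrones, pyrone compounds derived from phenylpropanoids. It read 6.03, 5.98 and 6.06 in des1-1, against 5.99, 5.71 and 5.77 in the wild type. Wild-type array 1 overlapped with the mutant arrays, and the difference of 0.20 ± 0.09 SE had an unadjusted p of 0.0539 and an adjusted p of 0.332. CYP78A9, a regulator of seed and fruit growth, read 6.98, 7.35 and 7.0 in des1-1, against 7.06, 6.65 and 7.06 in the wild type, a difference of 0.19 (95% interval -0.14 to 0.51). It was 0.05 without wild-type array 2 and 0.067 without des1-1 array 2. CYP79A2, which starts benzyl glucosinolate synthesis from phenylalanine, stood at -0.03 (-0.20 to 0.15).

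Relatives that lie together on a chromosome could be compared only by the side and size of their differences, because 0 of the 68 members passed the test. In the gene order of the RefSeq table, 47 of the 68 members fell into 16 runs in which consecutive members of 1 family were at most 10 genes apart. The longest run held 11 CYP71B genes, CYP71B16 to CYP71B37, on chromosome 3 (AT3G26150 to AT3G26330), with 5 above 0, 6 below and differences from -0.24 for CYP71B24 to 0.20 for CYP71B23. UGT85A7, UGT85A2, UGT85A5 and UGT85A3 on chromosome 1 were split as well, with 2 above and 2 below. In all, 8 of the 16 runs were split and 8 lay wholly on 1 side of 0. Of those 8, the run of UGT71C5, UGT71C4 and UGT71C3 was above 0. The other 7, such as CYP71B27 to CYP71B29 and the pair of UGT84B2 and UGT84B1, were below. The pairs of UGT84B2 and UGT84B1, UGT73B5 and UGT73B4, UGT73C1 and UGT73C2, and UGT73D1 and UGT73C7 were dimmer than the median probe set. How the side of dim members changed with single arrays left out is given below. No share for other neighbouring genes is given here. Closely related transcripts can bind each other's probes, which was not tested. The suffix by which Affymetrix marks sets shared between transcripts is on 0 of the 68 probe sets. The rule kept only sets with a single symbol, so this 0 cannot settle the matter. Another 5 probe sets were annotated with 2 genes and left out. Among them are one shared by UGT73B2 and UGT73B3 and one shared by CYP71B19 and CYP71B20. Some of these 5 lack the suffix.

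**Figure D4:**
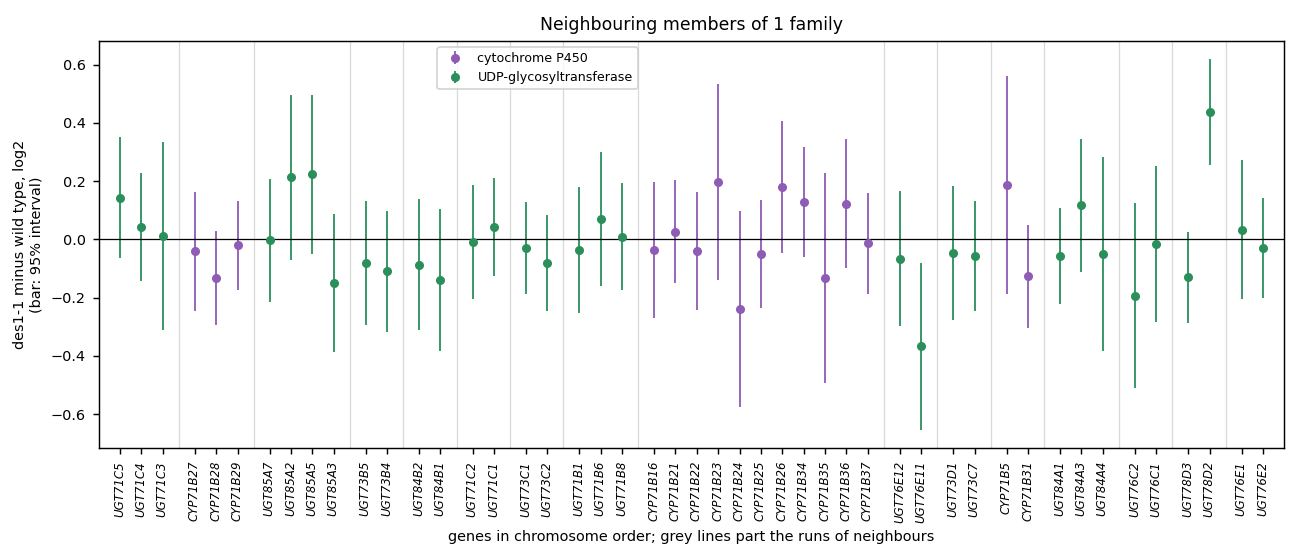
Log2 difference, des1-1 minus wild type, with its 95% interval for the 47 members in 16 runs of neighbouring genes, in chromosome order, P450s in purple and glycosyltransferases in green. Within the run of 11 CYP71B genes the points lie on both sides of 0, and UGT78D2 stands apart from its neighbour UGT78D3.

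More dim members lay below 0 than above, and the size of this excess changed with single arrays left out. Over the alternatives their median ran from -0.0792 without wild-type array 2 to -0.005 without wild-type array 1. Among the 36 members dimmer than the median probe set 26 were lower in des1-1, 72.2% against 50.3% of all dim probe sets, with a median of -0.04. Wild-type array 1 was the highest wild-type array for 25 of these 36 members, 69.4% against 38.3% of all dim probe sets. Without that array 18 were lower and 17 higher, and without des1-1 array 3 the counts were 20 and 15. Without des1-1 array 2 they were 30 and 6, 83.3% lower against 60.9% of all dim probe sets, and without wild-type array 2 they were 28 and 8. Des1-1 array 2 was the highest mutant array for 22 of the 36, 61.1% against 53.4% of all dim probe sets.

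Of the 32 brighter members 19 were higher in des1-1 and 13 lower, 59.4% higher against 51.6% of all bright probe sets, with a median of 0.10. Wild-type array 2, the array with the high ribosomal RNA control, was the lowest wild-type array for 17 of these members, 53.1% against 31.0% of all bright probe sets. Des1-1 array 2 was the lowest mutant array for 17 of them, 53.1% against 39.9%. Without wild-type array 2 alone 20 were higher and 12 lower, 62.5% higher against 52.4% of all bright probe sets. The counts without des1-1 array 2 were 24 and 8, 75% higher against 54.8% of all bright probe sets. Without wild-type array 2 and des1-1 array 3 together, 17 were higher and 13 lower and the median was 0.03. The share higher was then 53.1% against 48.4%. The part of these arrays in the single differences was not tested beyond leaving them out.

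**Figure D5:**
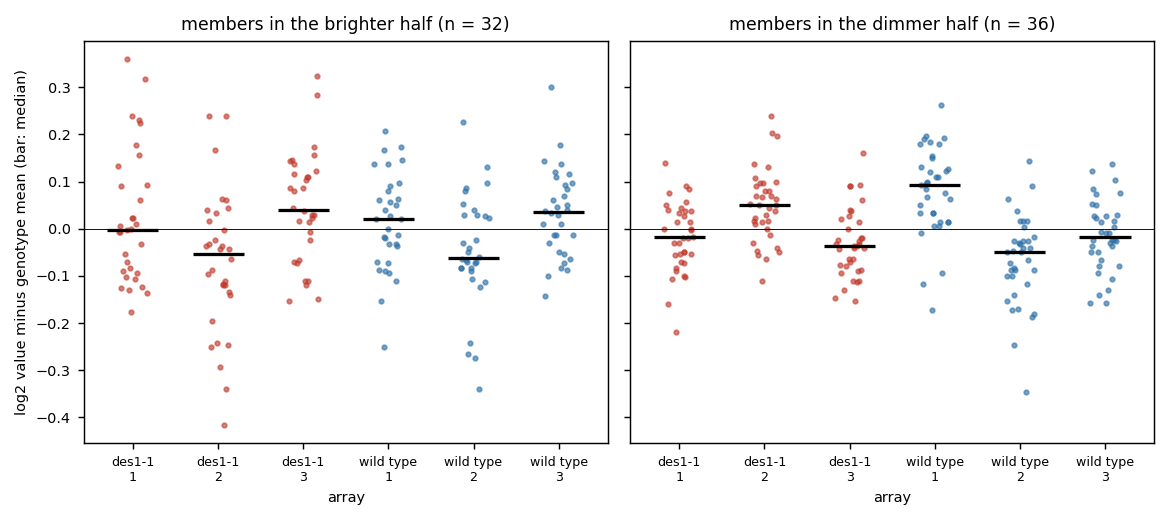
Log2 value minus the mean of its genotype for each array, 3 des1-1 arrays at the left and 3 wild-type arrays at the right of each panel, for the 32 brighter members (left panel) and the 36 dimmer members (right panel), with the median as a bar. Among dimmer members wild-type array 1 is highest, with a median of 0.09, and among brighter members wild-type array 2 is lowest, with a median of -0.06.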

How the data were processed

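Leaf RNA from 3 des1-1 and 3 wild-type samples was hybridised to Affymetrix ATH1 arrays. Per the submitters' processing notes, the authors made the deposited log2 values with RMA in affy, of which the sources used here give no version. RMA corrects background, brings arrays to 1 distribution and summarises probes, so a shift shared by all genes is removed and dim differences are compressed. Arrays have no read depth, and their number limits the precision.

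Of 22810 probe sets, 64 controls were left out and 22746 were tested in R 4.3.3 by limma 3.58.1 (eBayes after lmFit, a two-sided test of genotype with no other term, adjusted by Benjamini-Hochberg across the 22746). SE, 95% intervals and p-values come from this fit. The fit was also run on simulated data, and that run was not used to say how small a change could be found. The platform annotation gave 13513 probe sets 1 gene, 503 several and 8730 none here. All 68 members kept their symbol in the RefSeq table of TAIR10.1, which was used for names and gene order only.

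The members and lists were chosen with earlier results of these data known. Named were members with an adjusted p under 0.05, up to 10 per family and direction with an unadjusted p under 0.05 and no overlap, and up to 3 per role list by p. Others named here were chosen after their values were seen, as were the runs of neighbours and the split by level. Alternatives changed the normalization, dim filter, eBayes trend, array weights, replicate block and arrays. Plots and tables used Python 3.11.15, pandas 2.3.3 and matplotlib 3.10.9. Nothing says whether replicates were separate pools of plants beyond being biological.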

Additional observations from a re-analysis of the deposited data

How the results depend on the processing

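The count of members past an adjusted p under 0.05 was 0 in both families in every alternative except 2. Leaving out single arrays gave 0 to 1 glycosyltransferases (UGT78D2 without des1-1 array 1 and UGT87A2 without des1-1 array 2) and 0 P450s. Of all probe sets 3.36% and 0.171% passed in these 2 settings, against 0.387% with all arrays. At an unadjusted p under 0.05, P450s numbered 0 as reported and 1 with arrays centred on the median, quantile normalization, array weights or the replicate block, and 0 to 1 with single arrays left out. Glycosyltransferases numbered 6 as reported, 2 to 7 with single arrays left out, and 3 without wild-type array 2 and des1-1 array 3 together. That last setting was chosen after seeing the data. Of all probe sets 15.6% had such a p as reported, 10.4% to 18.9% with single arrays left out and 8.05% without those 2 arrays. The share was 15.7% with centred arrays, 16.4% after quantile normalization, 13.9% with array weights and 16.5% with the replicate block. The P450 median of -0.02 became 0.0867 without the dimmest 25% of probe sets and 0.1083 without the dimmest 50%, where 17 and 12 of the 22 remained. The glycosyltransferase median of -0.01 became 0.0817 without the dimmest 50%, where 20 of the 46 remained. Same-numbered arrays deviated together at 0.17, -0.23 and 0.21, so the numbers were not taken as pairs. With the replicate block 0 members passed, against 0.805% of all probe sets, and 7 glycosyltransferases had an unadjusted p under 0.05, against 16.5%. Signs turned in 9 named genes, none past the test. UGT74D1 stood at 0.01 with centred arrays and 0.0117 after quantile normalization, and UGT74F1 at -0.0021 with array weights. Without wild-type array 2 and des1-1 array 3 together, UGT71B6 stood at -0.03 and UGT71C4 at -0.05. With single arrays left out, UGT74D1 ran from -0.0583 to 0.085, UGT74F1 from -0.0867 to 0.1433, CYP79A2 from -0.0633 to 0.0217 and UGT71B1 from -0.1083 to 0.0217. UGT71B6 ran from -0.0167 to 0.1683, UGT71C4 from -0.015 to 0.075 and UGT72E3 from -0.0983 to 0.0217. UGT80B1 ran from -0.0083 to 0.0817 and UGT84B2 from -0.14 to 0.01. The cause was not tested, other than that some settings hold fewer arrays or probe sets. Low signal over background limits what can be seen in the 36 dimmer members.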
